A study of Homo sapiens with 12 samples.

Results

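Chromosome 1 carries many genes that T cells and other immune cells use, and 53 of them are described here by the STAT5B peaks called at or near them in human T-ALL cell lines. The 53 genes are a chosen list of receptors, ligands, signaling proteins, and transcription factors of T-lymphoid and immune cells, out of 2061 protein-coding genes that GENCODE places on the chromosome. For reading, they were divided by role into 9 genes of T cell receptor signaling, 8 of cytokine signaling, 6 that encode transcription factors, *NOTCH2*, or *MCL1*, 9 of the SLAM family, 5 of the CD1 family, 7 of the TNF family of ligands and receptors, 4 RGS genes, and 5 other surface molecules.

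The study measured STAT5B on chromatin by ChIP-Seq, in which an antibody pulls down the DNA fragments a protein is bound to, in lines of T-ALL, a leukemia of T cell precursors. There are 6 lines, all labelled wild type, precursor T cell, and lymphoid, with no treatment named. Wild type is the label only and does not say which mutations a line carries, in STAT5B or elsewhere. High STAT5 activation, here high pY-STAT5, is the label of KOPT-K1, of DND-41, of HSB-2, and of SUP-T13 (n = 4), and low is the label of LOUCY and of JURKAT (n = 2). Each line gave 1 STAT5B library and 1 input library, so a value for 1 line has no replicate, and the deposited list of each line holds the peaks called over its own input. Unless lines are named, 6 values in a row follow this order of the lines, which begins with KOPT-K1 and ends with JURKAT. A peak list holds no expression values, so the identity of a line could not be checked from it.

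STAT5B is a transcription factor that lies idle in the cytoplasm until a Janus kinase at a cytokine receptor phosphorylates it, after which it pairs up, enters the nucleus, and binds DNA at a palindrome, TTCNNNGAA, in promoters and enhancers. In T cell precursors this route carries the survival signal of interleukin-7, and T-ALL cells often keep it switched on through changes in the receptor or its kinases. Several immune gene families of chromosome 1 lie side by side, among them the CD1 molecules that show lipids to T cells, the SLAM receptors that immune cells use to sense each other, and the RGS proteins that shorten signals from chemokine receptors.

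Sequences at strong peaks that hold the palindrome are shown first, because the letters under a summit are what a DNA-binding factor can read. A summit is the base of highest signal in a peak, positions count from 1, and each window below holds 50 bases to either side of a summit on the plus strand of GRCh38, with every match to TTCNNNGAA in capitals. Strength is given as the −log10 q of the authors' peak caller, so that a larger value is a stronger peak, and as the fold enrichment over input. The DND-41 window near *MCL1*, which encodes a protein that protects from apoptosis, is chr1:150552398-150552498, with a −log10 q of 8.05 and a fold of 3.29, 8447 bp downstream of the gene. The LOUCY window in intron 10 of *TGFBR3*, which encodes a coreceptor for TGF-β, is chr1:91717326-91717426, with a −log10 q of 4.79 and a fold of 2.15. The peak of this summit is an interval of 291069 bp. The DND-41 window in intron 2 of *NOTCH2*, which encodes a Notch receptor, is chr1:120015227-120015327, with a −log10 q of 5.58 and a fold of 2.91, and its 101 bases occur 2 times on chromosome 1, so that the place of this peak is uncertain. The SUP-T13 window in intron 2 of *VAV3*, which encodes a signaling protein downstream of the T cell receptor, is chr1:107851978-107852078, with a −log10 q of 4.78 and a fold of 2.47.
*MCL1*, DND-41: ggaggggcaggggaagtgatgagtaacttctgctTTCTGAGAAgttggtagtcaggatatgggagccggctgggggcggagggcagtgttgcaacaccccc
*TGFBR3* intron 10, LOUCY: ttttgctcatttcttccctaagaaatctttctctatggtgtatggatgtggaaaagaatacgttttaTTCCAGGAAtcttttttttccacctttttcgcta
*NOTCH2* intron 2, DND-41: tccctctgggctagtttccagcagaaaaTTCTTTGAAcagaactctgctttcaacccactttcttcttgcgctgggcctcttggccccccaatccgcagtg
*VAV3* intron 2, SUP-T13: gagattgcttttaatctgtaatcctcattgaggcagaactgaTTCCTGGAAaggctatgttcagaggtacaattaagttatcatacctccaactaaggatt

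Each of these windows holds the palindrome 1 time.

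The promoter of *TGFBR3* is shown because a summit fell at its start site in lines of both groups. It is the RefSeq promoter (GRCh38.p14), of which the 250 bases before the start site are given at chr1:91886152-91886401 on the minus strand, and the capitals mark the last 7 bases, around the DND-41 summit at base 247.
*TGFBR3* promoter: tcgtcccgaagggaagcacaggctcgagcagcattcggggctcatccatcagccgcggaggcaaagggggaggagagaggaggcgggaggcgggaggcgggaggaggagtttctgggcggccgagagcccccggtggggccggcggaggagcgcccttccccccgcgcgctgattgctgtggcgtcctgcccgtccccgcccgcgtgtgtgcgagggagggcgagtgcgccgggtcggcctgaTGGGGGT

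The DND-41 summit at position 91886155 had a fold of 2.73 and a −log10 q of 5.8, and the JURKAT summit 66 bp away, at 91886089 in exon 1, had a fold of 2.43 and a −log10 q of 5.63. This promoter holds no TTCNNNGAA. RefSeq promoters of 300 bases (250 before to 50 after a start site) could be matched to 45 of the 53 genes, which gave 63 promoters. The palindrome was present in 2 of these 63 (3.17%), 1 of *TNFRSF9* and 1 of *CD244*, against 258 of 3598 promoters of the whole chromosome (7.17%).

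The peaks of chromosome 1 were uneven along it, which bears on which of the 53 genes could carry one. The lists held 29, 4732, 2556, 2813, 1655, and 4366 chromosome 1 peaks, which were 1.05%, 78.7%, 83.7%, 64.4%, 70.8%, and 69.1% of all peaks of the line. KOPT-K1 therefore gave hardly any information on these genes, and every count of it below rests on 29 peaks. Below 30 Mb the lines had 1, 6, 0, 0, 0, and 1 summits, and above 210 Mb they had 0, 1, 0, 1, 0, and 1. From the 1st to the 99th percentile the summits of DND-41 ran from 35.7 to 184 Mb, those of HSB-2 from 69.9 to 175 Mb, those of SUP-T13 from 39.6 to 196 Mb, those of LOUCY from 41.4 to 204 Mb, and those of JURKAT from 37.5 to 170 Mb. Of the 53 genes, 37, 32, 41, 43, and 34 started inside the stretch of these 5 lines (69.8%, 60.4%, 77.4%, 81.1%, and 64.2%), against 55.2%, 37.9%, 54%, 56.4%, and 50.1% of the other genes, so that shares over all genes compare lists that differ in this. A gene outside its line's stretch lies where the list is nearly empty, and absence of a peak there cannot be told apart from absence of coverage in the list.

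The 10 genes with no summit within 50 kb in any line were *TNFRSF18*, *TNFRSF4*, *TNFRSF9*, *PIK3CD*, *TNFRSF1B*, *RUNX3*, and *LCK* toward the short-arm end and *IL10*, *FCMR*, and *CD55* toward the long-arm end. All 10 lay outside the stretch of each of the 5 lines with more than 29 peaks. *LCK*, the kinase that starts T cell receptor signaling, had its nearest summit 208201 bp away in JURKAT and 246927 bp away in DND-41. *RUNX3*, a transcription factor of the CD8 lineage, had its nearest listed summit 392300 bp away in DND-41, and without a listed peak nearby these lists cannot show whether STAT5B binds there. *PIK3CD*, the leukocyte catalytic subunit of phosphoinositide 3-kinase, had it 926976 bp away in the same line. *IL10*, an inhibitory cytokine, had its nearest summit 357688 bp away in SUP-T13, where *FCMR*, a receptor for IgM, had it 493403 bp away and *CD55*, an inhibitor of complement, 911605 bp away.

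The peaks were long and weakly enriched. The median interval was 4461, 3710, 7840, 3702, 10174, and 3656 bp long, and the longest was 0.0131, 0.209, 18, 18, 18, and 3.81 Mb. The median fold was 1.98, 2.19, 1.88, 2.01, 1.72, and 1.93. The lists do not state depth, but the fold with a pseudocount of 1 and the Poisson p of each peak together gave a whole number of fragments at the summit, within 0.002 of the listed −log10 p, for all 16151 chromosome 1 peaks. The next whole number would have shifted the −log10 p by a median of 0.0575 in LOUCY to 0.11 in DND-41. The median number of fragments at a summit was 26, 21, 33, 25, 42, and 28, against 12.6, 8.63, 16, 11.2, 22, and 12.9 expected by the authors' peak caller. The expected number was not always a local input count, because 31%, 67%, 51.8%, 36.3%, 35.3%, and 44.9% of the chromosome 1 summits had the same lowest value of their line (12, 8.63, 16, 10.6, 19.9, and 12.6). At promoter or body summits of the 53 genes, this minimum held for 28 of 65 in DND-41, 15 of 33 in HSB-2, 2 of 66 in SUP-T13, 3 of 26 in LOUCY, and 11 of 65 in JURKAT. At such a summit the fold is over this minimum. Total library sizes remain unknown.

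Counted by line, 0, 8, 5, 12, 2, and 10 of the 53 genes had a summit within 2 kb of an annotated start site, here a promoter summit. The shares of all 2061 genes were 0%, 13.1%, 8.59%, 17.1%, 7.71%, and 16.6%, beside 0%, 15.1%, 9.43%, 22.6%, 3.77%, and 18.9% of the 53. A summit in the promoter or the gene body was found at 0, 11, 15, 20, 15, and 16 of the 53 genes, which is 0%, 20.8%, 28.3%, 37.7%, 28.3%, and 30.2%. All genes of the chromosome gave 0.388%, 29%, 19.6%, 27.4%, 22.6%, and 31.1%. The 53 genes thus lay below the chromosome in KOPT-K1, DND-41, and JURKAT and above it in HSB-2, SUP-T13, and LOUCY. This direction was not stable in any line: against the other genes it turned in 11 of 53 comparisons, each of 1 line under 1 alternative. At a −log10 q of at least 5, SUP-T13 had 1 of 53 listed genes (1.89%) and 78 of 2008 others (3.88%), while DND-41 had 3 of 53 (5.66%) and 88 of 2008 (4.38%). Over any line, 29 of the 53 genes (54.7%) had a promoter or body summit, near the 51.8% of all genes.

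Within 50 kb of the gene, 2, 21, 29, 39, 30, and 28 of the 53 had a summit, and 43 did in any line (81.1%, against 63.2% of all genes). The shares of all genes were 0.97%, 45.5%, 36.2%, 43.8%, 44.9%, and 50.3%, and those of the 53 were 3.77%, 39.6%, 54.7%, 73.6%, 56.6%, and 52.8%. An interval covered at least 1 base of 0, 13, 19, 32, 24, and 18 of the 53, beside 0.388%, 32.1%, 27.8%, 50.2%, 44.6%, and 34.8% of all genes. In DND-41 the 53 genes were below the chromosome under each of the last 3 assignments, and in SUP-T13 they were above it under each. When only genes inside the stretch of a line were kept, a choice made after the data were seen, 11 of 37 listed genes (29.7%) had a promoter or body summit in DND-41, against 50% of the other genes there. The same count was 13 of 32 (40.6%, others 49%) in HSB-2, 20 of 41 (48.8%, others 48.8%) in SUP-T13, 15 of 43 (34.9%, others 39%) in LOUCY, and 16 of 34 (47.1%, others 59.3%) in JURKAT. Inside the stretches, the listed genes were therefore below the others in DND-41, HSB-2, LOUCY, and JURKAT and level with them in SUP-T13, and in KOPT-K1 it was 0 of 38 against 0.552%. Within 50 kb, the genes inside the stretch gave 5.26%, 56.8%, 84.4%, 92.7%, 69.8%, and 82.4% of the listed and 1.18%, 77.5%, 91.3%, 76.7%, 77%, and 95.3% of the others. The listed genes were thus above the others only in SUP-T13 and KOPT-K1, the latter with 2 genes.

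**Figure D1:**
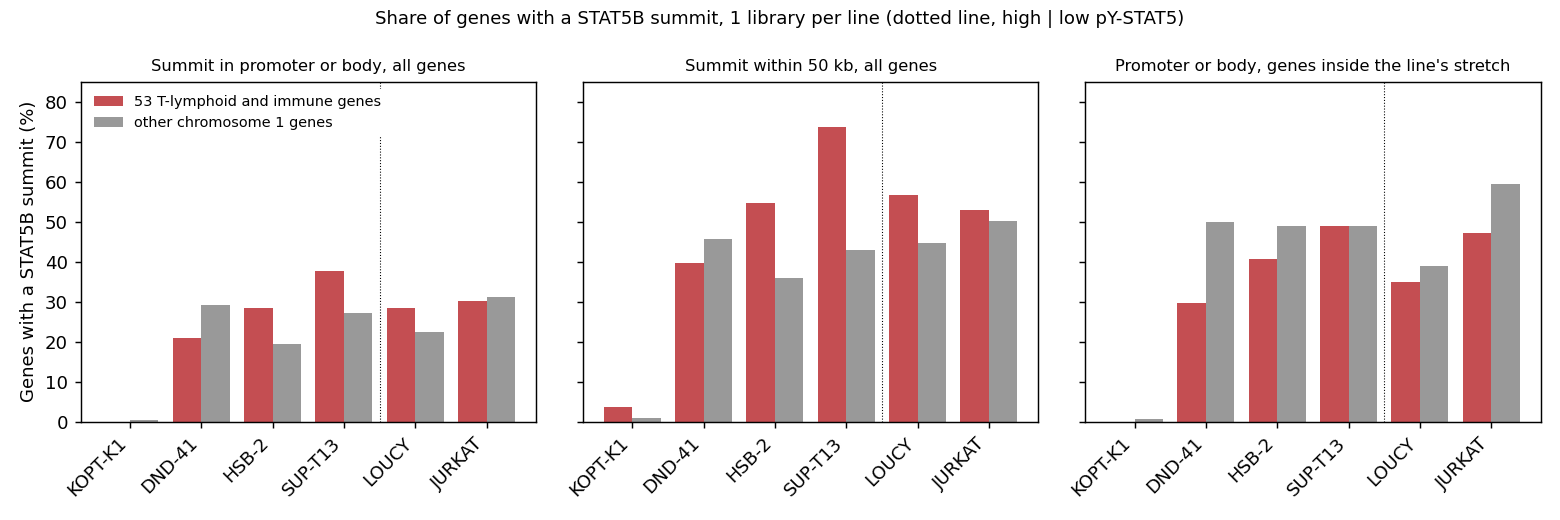
Share of genes (vertical axis, %) with a STAT5B summit by line for the 53 listed genes and for the other chromosome 1 protein-coding genes, for promoter or body summits, summits within 50 kb, and promoter or body summits of the genes inside the stretch of the line. SUP-T13 had 73.6% of the listed genes within 50 kb of a summit, against 43% of the others, and 77.4% of the listed but 54% of the other genes lay inside its stretch.

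T cell receptor signaling comes first among the roles. Of its 9 genes, 0, 3, 3, 4, 4, and 5 had a promoter or body summit (0%, 33.3%, 33.3%, 44.4%, 44.4%, and 55.6%). The shares of all 2061 genes were 0.388%, 29%, 19.6%, 27.4%, 22.6%, and 31.1%, and they apply beside the count of each role below. Longer genes catch more summits, and the counts by role were not adjusted for gene length. *VAV3*, at chr1:107571161-107965180, had 0, 15, 5, 23, 7, and 13 such summits. It spans 394020 bp, and SUP-T13 had the most and KOPT-K1 none, with both low lines inside the range of the high lines. Between the 5′ end of the gene and position 107813065, where JURKAT had the summit nearest to that end, SUP-T13 alone had summits. Summits of DND-41, JURKAT, and HSB-2 fell within 403 bp of each other in intron 19, with folds of 2.05, 2.04, and 1.62. In intron 15, summits of DND-41 and SUP-T13 lay 416 bp apart with folds of 2.6 and 2.59. The palindrome lay within 50 bp of the DND-41 summit at 107647991 in intron 19 (fold 2.55) and of the SUP-T13 summits at 107786757 (fold 1.75) and 107852028 in intron 2, the last of which is the window printed above. Start sites of shorter transcripts put promoter summits of *VAV3* in DND-41, SUP-T13, LOUCY, and JURKAT, all of them at least 178423 bp from the 5′ end of the gene.

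*PTPN22*, which encodes a phosphatase that restrains T cell receptor signals, had 0, 4, 1, 3, 1, and 3 promoter or body summits. A SUP-T13 summit at 113870861 lay 803 bp from a start site in intron 1 (fold 1.96, −log10 q 2.93), and a DND-41 summit at 113820367 lay 535 bp from the start of a shorter transcript in intron 19 (fold 2.3, −log10 q 2.95). In intron 1, JURKAT and SUP-T13 had summits 79 bp apart with folds of 1.97 and 1.76, and a DND-41 summit at 113864470 (fold 2.33) had the palindrome. Lines of both groups thus had summits in this intron.

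*CD247*, which encodes the ζ chain that carries the signal of the T cell receptor, had 0, 0, 0, 3, 2, and 1 promoter or body summits. The SUP-T13 summits were at 167435611, 167463046, and 167490207 (folds 1.97, 1.96, and 1.94), those of LOUCY were at 167466215 and 167506203 (folds 1.56 and 1.62), and that of JURKAT was at 167437741 (fold 1.76). No pair of these lay within 500 bp across lines. *BCL10*, an adapter between antigen receptors and NF-κB, had 0, 1, 1, 0, 1, and 1, each at a different place of the gene. *NRAS*, a small GTPase of the MAP kinase route, had 1 in SUP-T13, at the last base of the gene (114704469, fold 2.36, −log10 q 4.46) with the palindrome, and 1 in JURKAT, 848 bp from the start site (114715923, fold 1.9). *PTPRC*, which encodes the CD45 phosphatase that sets the threshold of receptor signals, had 1 summit within 50 kb, in SUP-T13, 21831 bp downstream. *PTPN7*, a phosphatase of MAP kinases, had 5 within 50 kb in LOUCY, the nearest 11403 bp upstream, and 0 in every other line. *PTPRC* and *PTPN7* started inside the stretch of LOUCY only. A 0 of another line there cannot be told apart from absence of coverage in its list. *LCK* and *PIK3CD* were among the 10 genes with none.

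The cytokine genes gave 0, 4, 5, 3, 5, and 5 of 8 with a promoter or body summit. These were 0%, 50%, 62.5%, 37.5%, 62.5%, and 62.5%, beside 0.388%, 29%, 19.6%, 27.4%, 22.6%, and 31.1% of all genes. *JAK1*, which encodes a Janus kinase that phosphorylates STAT proteins at many cytokine receptors, had 0, 2, 0, 6, 2, and 6 such summits over its 234532 bp. The gene started outside the stretch of HSB-2, so the 0 of that line cannot be told apart from absence of coverage in its list. SUP-T13 and JURKAT, from different groups, had the most. A SUP-T13 summit at 65067370 lay 244 bp from a start site at the 5′ end of the gene (fold 2.13, −log10 q 3.24), and a DND-41 promoter summit at 64839442 in intron 20 (fold 2.29) belonged to a shorter transcript. In intron 4, summits of LOUCY and SUP-T13 lay 84 bp apart, with folds of 1.74 and 2.67 and a −log10 q of 2.75 and 5.54. The palindrome was at the SUP-T13 summit at 65060213 (fold 2.28) and at the JURKAT summit at 64979941 (fold 1.76).

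*IL23R* and *IL12RB2* encode receptor chains for interleukin-23 and interleukin-12 and are neighbours on the chromosome. *IL23R* had 0, 5, 1, 5, 2, and 7 promoter or body summits, and *IL12RB2* had 0, 6, 1, 2, 1, and 6. For both genes JURKAT matched or exceeded every high line, and LOUCY was within the range of the high lines. Both started outside the stretch of HSB-2, so a low count of that line cannot be told apart from absence of coverage in its list. The *IL23R* summits with the palindrome were at 67141201 (fold 2.18) and 67162843 (fold 2.08) in DND-41 and at 67172387 in SUP-T13 (fold 2). Promoter summits of *IL23R* were a SUP-T13 summit at 67164595, 1859 bp from a start site (fold 2.51, −log10 q 4.35), and a JURKAT summit at 67209198 in intron 6 (fold 2.01). The 31 bases around this SUP-T13 summit occur 112 times on chromosome 1, and the 51 bases 1 time. The SUP-T13 summit at 67313704 lay in intron 1 of *IL12RB2*, 269 bp from a start site (fold 2.39, −log10 q 4.06). Promoter summits of the same gene were at 67321567 in DND-41 (fold 2.08) and at 67327249 in JURKAT (fold 1.96). In its intron 14, LOUCY and DND-41 had summits 200 bp apart, with folds of 1.96 and 2.18.

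*TGFBR3*, at chr1:91680343-91906335, had 0, 13, 12, 0, 1, and 4 promoter or body summits. DND-41 and HSB-2 were the highest, and KOPT-K1 and SUP-T13, also high pY-STAT5 lines, had none. SUP-T13 had none within 50 kb either, its nearest summit lying 392583 bp away, although 2 of its intervals reached over the gene. DND-41 and HSB-2 had summits 312 bp apart in intron 2, with folds of 2.7 and 1.94. A further DND-41 promoter summit was at 91904741, 1594 bp from the 5′ end of the gene (fold 2.49, −log10 q 3.66). The LOUCY summit in intron 10 was its only one in the gene.

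*IL6R*, which encodes the interleukin-6 receptor, had 0, 0, 1, 0, 1, and 3 promoter or body summits. LOUCY and JURKAT had summits 193 bp apart in intron 1 (folds 2.2 and 1.91), and JURKAT and HSB-2 had summits 329 bp apart in intron 6 (folds 1.81 and 2.12). A JURKAT promoter summit was at 154433172, 1481 bp from the start of a shorter transcript (fold 1.94). *XCL1*, which encodes a lymphocyte chemokine, had 1, in HSB-2 at 168577492 in intron 1, 887 bp from its start site (fold 1.73, −log10 q 1.94). Within 50 kb *XCL1* had 1, 0, 2, 11, 1, and 0 summits, and its close relative *XCL2* had 1, 0, 1, 7, 2, and 0, so that SUP-T13 had the most for both. The KOPT-K1 summit was the same 1 for both genes, at 168572646, 3959 bp upstream of *XCL1* and 28649 bp upstream of *XCL2* (fold 1.95, −log10 q 1.82, 26 fragments against 12.8 expected). It was the sole summit of KOPT-K1 within 50 kb of any of the 53 genes. *IL10* had none.

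**Figure D2:**
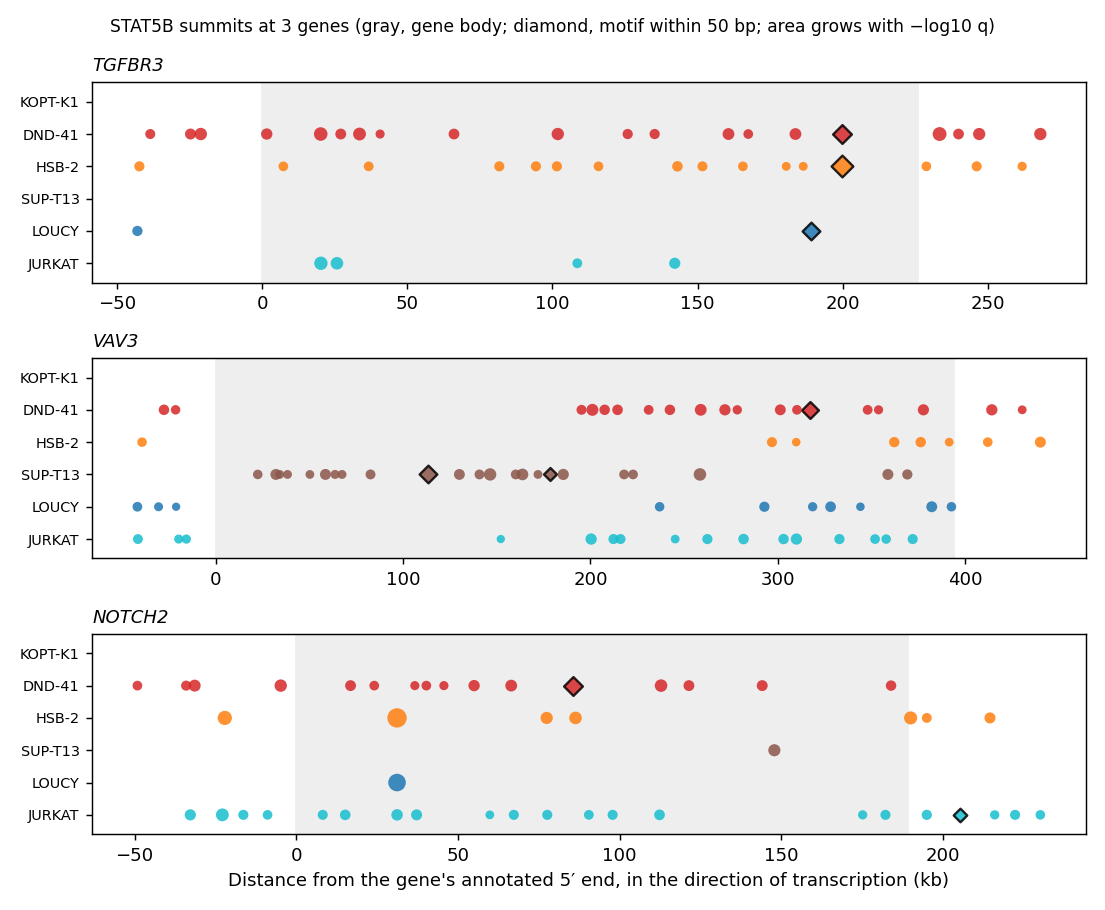
Summits at *TGFBR3*, *VAV3*, and *NOTCH2* by line (rows), drawn as distance from the 5′ end of the gene (horizontal axis, kb), with the gene body in gray, diamonds where the palindrome lay within 50 bp, and an area that grows with −log10 q. *VAV3* had 23 promoter or body summits in SUP-T13, and *TGFBR3* had 13 in DND-41 and 0 in SUP-T13.

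Among the transcription factors, *NOTCH2*, and *MCL1*, 0, 1, 1, 2, 1, and 3 of 6 genes had a promoter or body summit, beside 0.388%, 29%, 19.6%, 27.4%, 22.6%, and 31.1% of all genes. *NOTCH2*, at chr1:119911553-120100779, had 0, 12, 3, 1, 1, and 12. Its start site carried the 2 strongest promoter summits of all 53 genes, those of HSB-2 and LOUCY. HSB-2 had 1 at 120069599 (fold 3.25, −log10 q 13.1, 57 fragments against 16.9 expected), LOUCY had 1 at 120069600 (fold 2.72, −log10 q 10.6, 61 against 21.8), and JURKAT had 1 at 120069586 (fold 2.28, −log10 q 3.83). The LOUCY summit belongs to an interval of 1128452 bp. These 3 summits lay within 14 bp of each other in the untranslated part of exon 1, whose sequence is not printed, and came from 1 high and 2 low lines. The gene has near-identical copies nearby: the 31 bases around the HSB-2 summit occur 5 times on chromosome 1, the 51 bases 3 times, and the 101 bases 1 time, and for LOUCY the 101 bases occur 2 times. Which copy the fragments came from is therefore uncertain. In intron 4, DND-41 and JURKAT had summits 471 bp apart, at 119987958 and 119988429 (folds 2.35 and 2.13), within 2 kb of the start of a shorter transcript, and the 31 bases around the DND-41 summit occur 1 time on the chromosome. JURKAT and HSB-2 had summits 180 bp apart in intron 2 (folds 2.06 and 2.24). JURKAT had a further promoter summit at 119925614 in exon 25 (fold 1.91).

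*GFI1*, a transcriptional repressor of lymphoid and myeloid differentiation, had 1 body summit in SUP-T13, in intron 6 at 92476414 (fold 1.89), and 1 in JURKAT, in exon 7 at 92475124 (fold 1.87), the latter with the palindrome. *TAL1*, a factor that T-ALL cells often express out of place, had 1, in JURKAT in intron 4 at 47220294 (fold 2.2, −log10 q 3.44). Within 50 kb *TAL1* had 0, 1, 0, 3, 0, and 10 summits, the most in JURKAT. The strongest was the DND-41 summit at 47179356 (fold 3.23, −log10 q 7.84). With weaker peaks removed (−log10 q below 5) it alone was left, since those of JURKAT reached 3.55 and those of SUP-T13 4.8. *JUN*, a subunit of AP-1, had none in the gene and 0, 2, 0, 2, 5, and 1 within 50 kb. *TAL1* and *JUN* started outside the stretch of HSB-2, so its 0 at both cannot be told apart from absence of coverage in its list. *MCL1* had none in the gene and 0, 2, 3, 4, 2, and 5 within 50 kb. The DND-41 summit printed above was the strongest of these, and a JURKAT summit at 150552229 lay near it with a fold of 1.98. *RUNX3* had none.

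The SLAM family had a promoter or body summit at 0, 1, 4, 7, 3, and 1 of its 9 genes, and each gene had 1 in at least 1 line. SUP-T13 had the most by this count, with such summits at *SLAMF6* (2), *CD84* (3), *SLAMF1* (2), *CD48* (2), *SLAMF7* (1), *LY9* (1), and *CD244* (4), which encode receptors and a ligand of T, B, and natural killer cells and lie in 1 cluster. Its share was 77.8%, beside 27.4% of all genes and 48.8% of the other genes inside its stretch. None of these summits had a −log10 q above 3.21, so at a −log10 q of at least 5 SUP-T13 had none. LOUCY then had those of *CD48* and *LY9* given below, and no other line had any in the family. In the same cluster HSB-2 had summits at *SLAMF7* and *LY9*, LOUCY at *SLAMF6*, *CD48*, and *LY9*, DND-41 at *SLAMF7*, JURKAT at *SLAMF7*, and KOPT-K1 at none. *SLAMF8* and *SLAMF9*, which lie apart from the cluster, had promoter summits in HSB-2 only, at 159826553 and 159830814 for *SLAMF8* (folds 1.7 and 1.91) and at 159955017 for *SLAMF9* (fold 1.88).

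The other promoter summits of the SLAM family were those of *CD84* at 160552887 (fold 1.83), *SLAMF1* at 160646758 (fold 2.11, −log10 q 3.17), and *LY9* at 160815871 (fold 1.98) in SUP-T13 and of *SLAMF7* at 160752337 in DND-41 (fold 2.13). The *SLAMF1* summit lay 200 bp from a start site, in intron 1. LOUCY had its strongest summits of the family at 160697258 in intron 1 of *CD48* (fold 2.15, −log10 q 5.12) and at 160819554 in intron 7 of *LY9* (fold 2.19, −log10 q 5.13). The HSB-2 summit of *SLAMF7*, at 160744325 in intron 1 (fold 1.77), had the palindrome. No pair of summits in these 9 genes lay within 500 bp across lines. Within 50 kb, 0, 5, 6, 8, 6, and 6 of the 9 genes had a summit.

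The CD1 family had a promoter or body summit at 0, 0, 1, 1, 0, and 1 of its 5 genes. *CD1D*, whose product shows lipids to natural killer T cells, had a SUP-T13 summit at 158181234, 198 bp from a start site in intron 1 (fold 2.2, −log10 q 3.41), and a JURKAT summit at 158179021, 926 bp from a start site (fold 1.74, −log10 q 1.54). *CD1A*, which marks cortical thymocytes, had an HSB-2 summit at 158253951, 473 bp upstream (fold 1.69, −log10 q 1.98). *CD1B*, *CD1C*, and *CD1E*, the other members of the family, had none in the gene. Within 50 kb the family had summits at 0, 0, 5, 5, 1, and 4 genes, and *CD1B* alone had 0, 0, 4, 8, 0, and 2. The genes are so close that 1 summit can count for several of them. DND-41, with more chromosome 1 peaks than any other line, had none within 185729 bp of a CD1 gene.

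The TNF family had a promoter or body summit at 0 of 7 genes in every line. *FASLG*, which encodes the death ligand of T cells, had 0, 0, 0, 2, 2, and 0 summits within 50 kb. *TNFSF18* and *TNFSF4*, which encode the costimulatory ligands of the GITR and OX40 receptors, had 0, 0, 2, 9, 1, and 0 and 0, 0, 3, 11, 0, and 0. SUP-T13 was the highest for both, and its summits at 173028307 near *TNFSF18* and 173139229 near *TNFSF4* had the palindrome, with folds of 1.93 and 1.99. *FASLG*, *TNFSF18*, and *TNFSF4* started outside the stretch of JURKAT, so its 0 there cannot be told apart from absence of coverage in its list. The 4 receptors of TNF and related ligands, *TNFRSF1B*, *TNFRSF4*, *TNFRSF9*, and *TNFRSF18*, lie in the part of the short arm where the lists are nearly empty and had none within 50 kb.

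The RGS genes had 1 promoter or body summit in all, that of LOUCY in intron 5 of *RGS13* at 192654336 (fold 1.62, −log10 q 1.55). Within 50 kb, SUP-T13 had summits at all 4 genes, 1 at *RGS18*, 1 at *RGS1*, 2 at *RGS13*, and 3 at *RGS2*, of which 1 lay near both *RGS1* and *RGS13*. LOUCY had 1, at *RGS13*, and the other lines had 0. The 4 genes started inside the stretch of SUP-T13 and LOUCY and outside that of KOPT-K1, DND-41, HSB-2, and JURKAT.

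Of the 5 other surface molecules, 0, 2, 1, 3, 1, and 1 had a promoter or body summit, beside 0.388%, 29%, 19.6%, 27.4%, 22.6%, and 31.1% of all genes. *CD58*, the ligand of CD2 on the cells T cells meet, had 0, 5, 1, 2, 3, and 4. In its intron 1, DND-41 and SUP-T13 had summits 33 bp apart (folds 2.08 and 2.17), and JURKAT and LOUCY had summits 161 bp apart (folds 1.73 and 1.55). The DND-41 summit at 116563358 was its strongest there, with a fold of 2.66 and a −log10 q of 5.22. *CD2*, an adhesion molecule of T cells, had 1, in SUP-T13 at 116754905 in exon 2, 438 bp from a start site (fold 1.77, −log10 q 2.05). *CD53*, a tetraspanin of leukocytes, had 0, 1, 0, 2, 0, and 0, among them promoter summits of shorter transcripts at 110896143 in DND-41 (fold 2.25) and 110893502 in SUP-T13 (fold 1.71). *FCMR* and *CD55* had none.

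**Figure D3:**
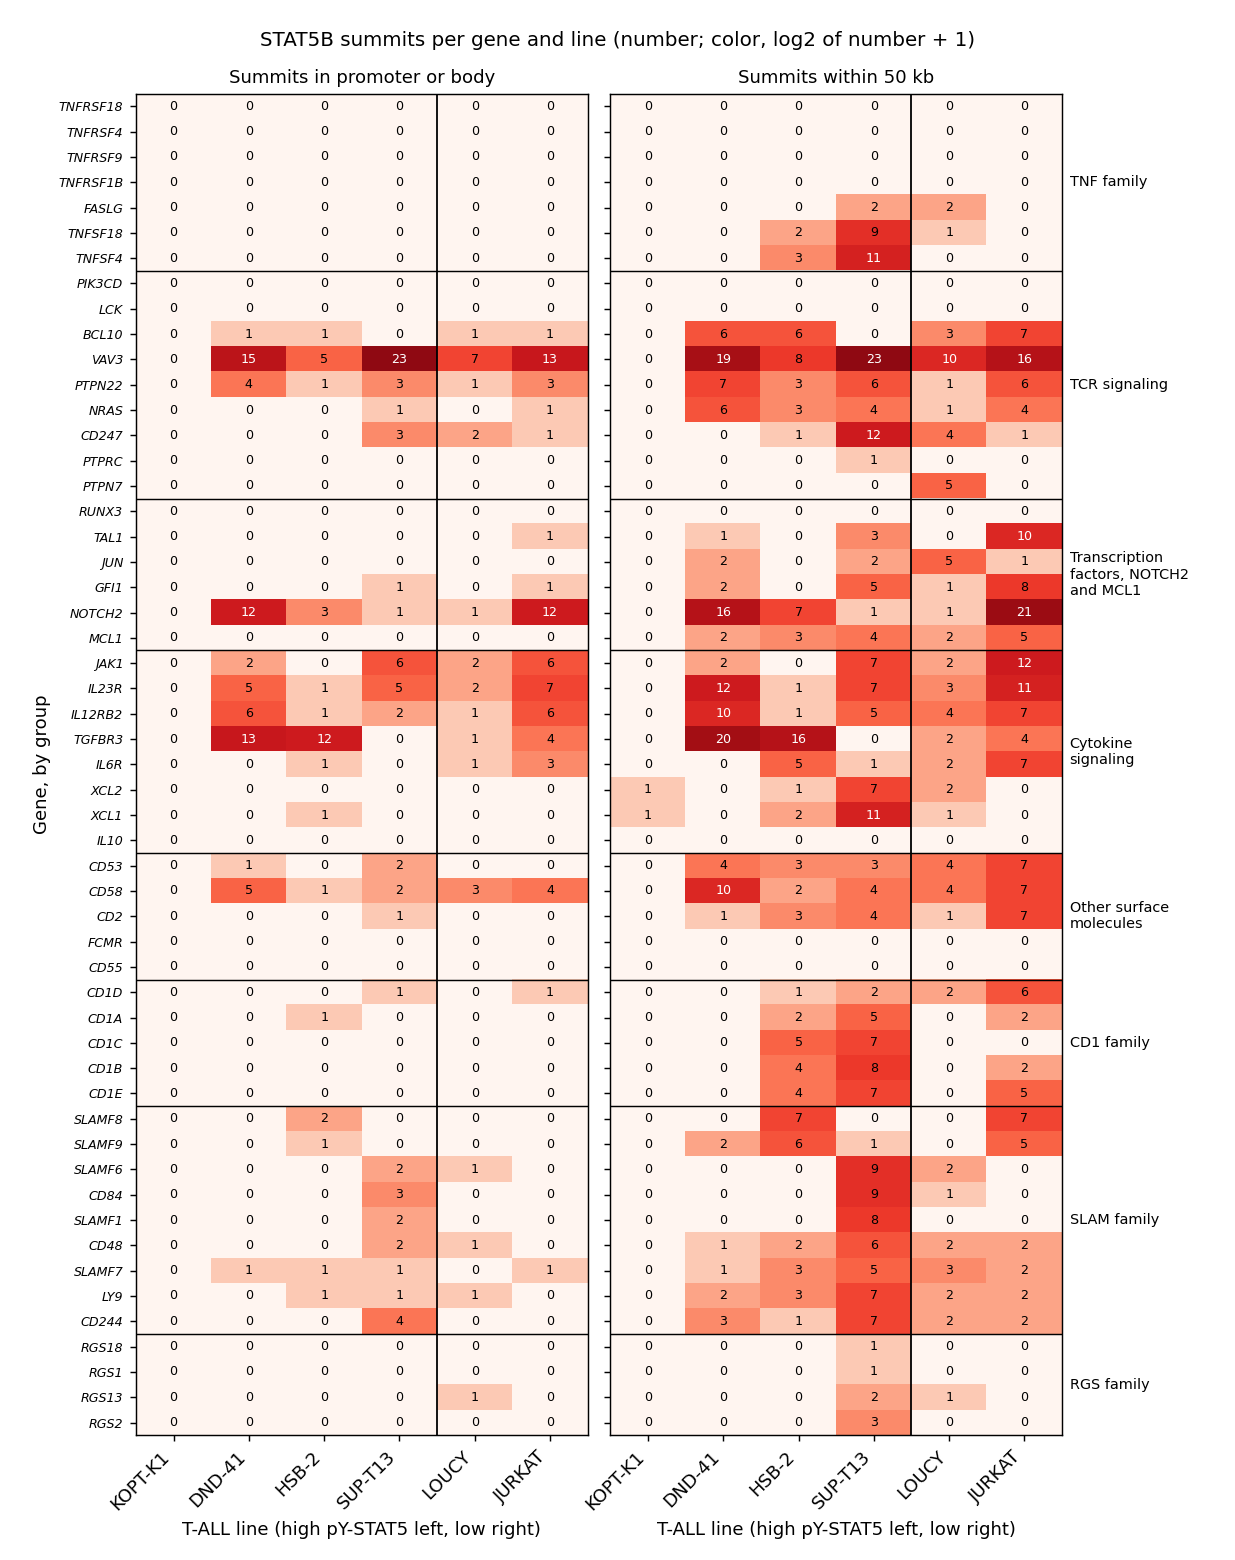
Number of summits in the promoter or body (left) and within 50 kb (right) of the 53 genes (rows, by role) in the 6 lines (columns), as printed number and shade, with the high pY-STAT5 lines left of the dividing line. *VAV3*, *TGFBR3*, and *NOTCH2* held the highest promoter or body counts, and 24 genes had 0 in every line.

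The comparison of high with low pY-STAT5 lines asks whether STAT5B peaks near these genes go with STAT5 activation. The mean number of the 53 genes with a promoter or body summit was 11.5 ± 8.5 (SD, n = 4) in the high lines and 15.5 ± 0.707 (SD, n = 2) in the low lines, a difference of -4 (high minus low) within the spread of the high lines. The difference rests largely on KOPT-K1 with its 29 peaks: without that line it was -0.167, and without SUP-T13 it was -6.83, the ends of the range when each line was left out. For promoter summits it was 6.25 ± 5.06 and 6 ± 5.66, and within 50 kb it was 22.8 ± 15.7 and 29 ± 1.41. Gene by gene, the number of summits within 50 kb was above that of both low lines in all 4 high lines for 0 of the 53 genes, as for 0 of all 2061 (0%). This count does not bear on STAT5 activation, since KOPT-K1 had a summit within 50 kb of 2 of the 53 and 20 of all 2061 genes, so that hardly any gene could meet it. It was below that of both low lines in all 4 high lines for 0 of the 53, beside 33 of all 2061 (1.6%). Without KOPT-K1 the counts over all genes were 3 (0.146%) and 33 (1.6%), and those of the 53 were again 0 and 0. With 15 ways to split 6 lines, the smallest p of an exact permutation test over lines is 0.0667 on the absolute difference, or 0.133 if a one-sided p is doubled, so that no gene could pass 0.05 by this test and no p is given.

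Leaving out 1 line changed the counts. Without LOUCY, JURKAT alone was above all 4 high lines at 429 of the 2061 genes and at 10 of the 53: *BCL10*, *CD1D*, *CD2*, *CD53*, *GFI1*, *IL6R*, *JAK1*, *MCL1*, *NOTCH2*, and *TAL1*. Without JURKAT, LOUCY alone was above them at 120 genes, with *JUN* and *PTPN7* among the 53. *PTPN7* started outside the stretch of every high line, and *JUN*, *JAK1*, and *TAL1* outside that of HSB-2. Without DND-41, HSB-2, or SUP-T13, the low lines were above the high ones at 93, 76, and 84 genes, among them *CD53*, *IL6R*, and *CD1D*, respectively.

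Per length of DNA, the 53 genes with 50 kb on either side cover 6.87 Mb and held 0.145, 17.9, 13.4, 25.5, 10, and 24.3 summits per Mb. The other protein-coding genes, with 165 Mb, held 0.0909, 19.5, 9.52, 13.6, 7.77, and 20.8, and the whole chromosome 0.116, 19, 10.3, 11.3, 6.65, and 17.5. The counting interval (exact Poisson, 95%) of the 53 lay above that of the other genes in SUP-T13 (21.8 to 29.5 against 13.1 to 14.2) and in HSB-2 (10.8 to 16.4 against 9.06 to 10). It overlapped that of the other genes in KOPT-K1 (0.00368 to 0.81), DND-41 (14.9 to 21.3), LOUCY (7.81 to 12.7), and JURKAT (20.7 to 28.3). With 2 kb in place of 50 kb, SUP-T13 was still above (20.2 to 32.7 against 13.8 to 15.2), but in HSB-2 the intervals overlapped (8.9 to 17.8 against 8.28 to 9.37). The 165 Mb of the other genes include the nearly empty ends of the chromosome. With only the genes inside the stretch of the line, a choice made after the data were seen, the densities were 33 against 24 in SUP-T13 (28.3 to 38.3 against 23 to 25), still above, and 22.9 against 27.3 in HSB-2 (18.4 to 28.1 against 26 to 28.7), no longer above. DND-41 was then below the other genes (21.1 to 30.2 against 33.3 to 35.7). These intervals cover counting error only, and summits near 1 gene are not independent of each other.

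The palindrome was within 50 bp of 0 of 1, 11 of 123 (8.94%), 6 of 92 (6.52%), 11 of 175 (6.29%), 1 of 69 (1.45%), and 5 of 167 (2.99%) summits within 50 kb of the 53 genes. For all chromosome 1 summits the shares were 3.45%, 8.09%, 6.38%, 3.66%, 3.02%, and 3.14%. The exact (Clopper-Pearson) 95% intervals of the 53 genes' shares were 4.55% to 15.4% in DND-41, 2.43% to 13.7% in HSB-2, 3.18% to 11% in SUP-T13, 0.0367% to 7.81% in LOUCY, and 0.979% to 6.85% in JURKAT, and each holds the share of the whole chromosome. In the promoter or body the counts were 6 of 65 in DND-41, 2 of 33 in HSB-2, 5 of 66 in SUP-T13, 1 of 26 in LOUCY, and 2 of 65 in JURKAT. A difference between the 53 genes and the chromosome was not detectable at these numbers.

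Another line's summit lay within 500 bp of 32 of the 255 promoter or body summits of the 53 genes (12.5%) and of 71 of the 627 summits within 50 kb (11.3%), against 1868 of all 16151 (11.6%). By line, the summits within 50 kb gave 0 of 1, 16 of 123 (13%), 14 of 92 (15.2%), 6 of 175 (3.43%), 15 of 69 (21.7%), and 20 of 167 (12%). Over all chromosome 1 summits of each line the shares were 17.2%, 10.9%, 13.8%, 10.6%, 15.1%, and 10.3%. SUP-T13, with the most summits near these genes, shared the smallest part of them with another line among the 5 lines with more than 1. The shared places inside genes were at *JAK1*, *IL12RB2*, *TGFBR3*, *VAV3*, *PTPN22*, *CD58*, *NOTCH2*, and *IL6R*, and those at *VAV3* intron 19 and the *NOTCH2* start site had summits of 3 lines.

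Lists of other chromosome 1 genes were set beside the 53. Of 15 Fc receptor and Fc receptor-like genes, used by myeloid and B cells, 0, 0, 5, 2, 2, and 13 had a promoter or body summit. Of 33 genes of epidermal differentiation it was 0, 0, 1, 2, 1, and 14, and of 65 olfactory receptor genes 0, 1, 6, 1, 2, and 10. In JURKAT these counts were 86.7%, 42.4%, and 15.4% of the 3 lists, beside 31.1% of all genes. Of the genes outside the 53 but inside the stretch of JURKAT, 59.3% had such a summit. Counted by intervals over the gene, the Fc list gave 0%, 6.67%, 73.3%, 100%, 100%, and 86.7%. The epidermal list gave 0%, 0%, 93.9%, 100%, 100%, and 57.6%, and the olfactory list 0%, 4.62%, 24.6%, 24.6%, 20%, and 15.4%. JURKAT was thus the highest line in each of the 3 lists by summits but in none by intervals. The number with a promoter or body summit was 0, 5, 5, 3, 3, and 5 of 16 further lymphoid genes. Of 9 other cytokine and receptor genes it was 0, 4, 2, 1, 0, and 3. Of 6 other RGS genes it was 0, 1, 2, 1, 0, and 1, of the 2 adapters of SLAM receptors 0, 0, 1, 1, 0, and 2, and of 3 other TNF receptors 0 in every line. How many genes of each comparison list started inside the stretch of a line was not counted. A low count or a 0 in these lists therefore cannot be told apart from absence of coverage.

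**Figure D4:**
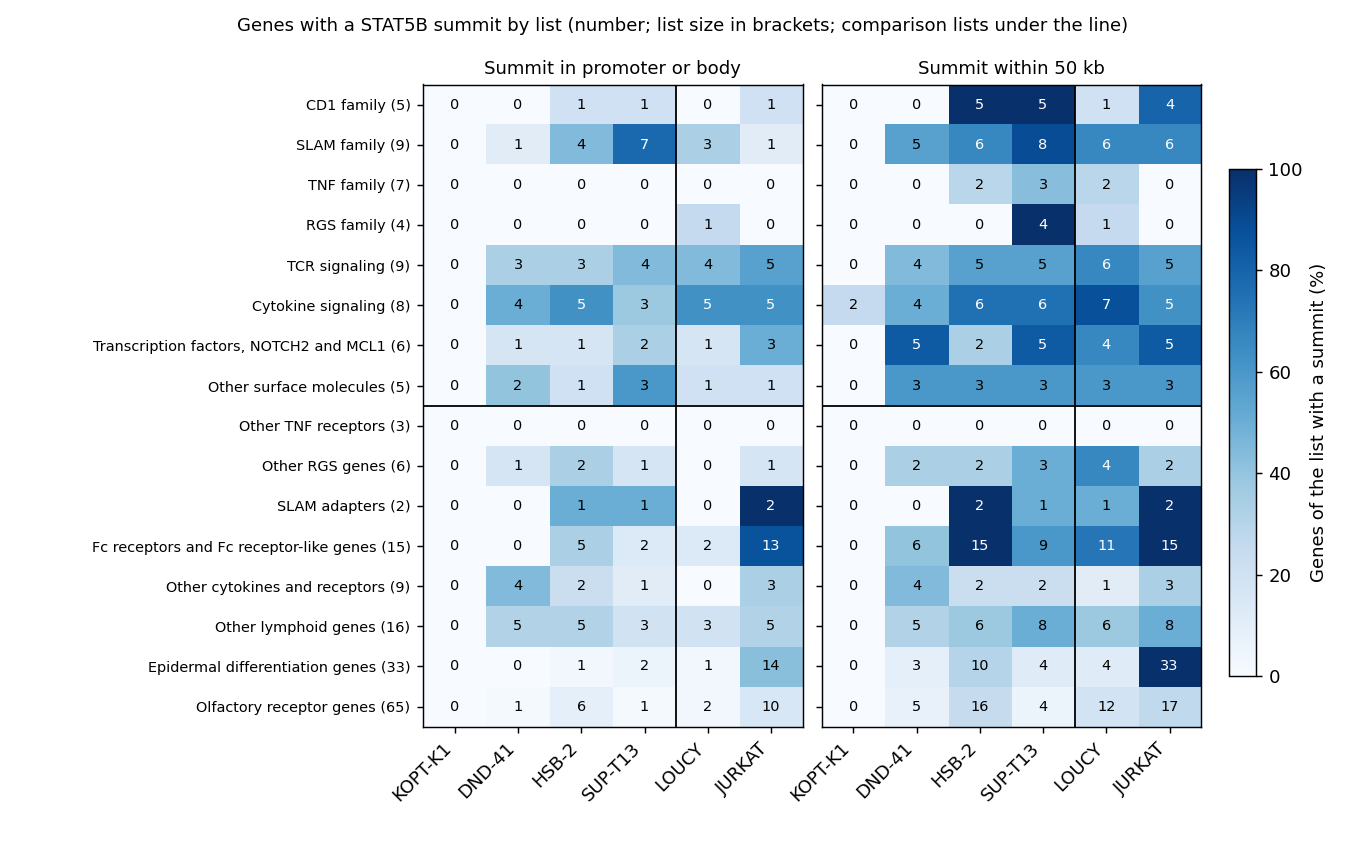
Genes with a summit by list (rows, list size in brackets) and line (columns), as number (printed) and share (shade, %), for promoter or body summits (left) and summits within 50 kb (right). The 7 genes of the TNF family had 0 promoter or body summits in every line, and JURKAT had them at 13 of 15 Fc receptor and Fc receptor-like genes.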

How the data were processed

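STAT5B ChIP-Seq peak lists of 6 T-ALL lines, 1 library per line, were used as deposited, and the input libraries and signal tracks were not. To make them, the authors passed reads through PRINSEQ-lite, mapped them onto GRCh38 (BWA 0.7.15-r1140, SAMtools 1.4), and ran the MACS2 peak caller with the matching input as control. Its options are not stated. Each deposited peak carries a fold over input, which is a linear ratio, a −log10 p, and a −log10 q, all from the authors' peak caller, with a lowest −log10 q of 1.3, and its summit as an offset in bp from the interval start. The lists state no depth.

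The genes and lists were chosen with earlier results of these data known. Genes, start sites of all transcripts, and canonical exons were taken from GENCODE version 44. A promoter summit lay within 2 kb of a start site, a body summit in the gene, and the widest assignment used 50 kb. Of the list of epidermal genes, the symbol *LOR* is not in this annotation. The stretch of a line ran from its 1st to its 99th percentile summit. TTCNNNGAA, which is its own reverse complement, was searched within 50 bp of summits. Shares have exact (Clopper-Pearson) 95% intervals, densities exact Poisson intervals. Genes with a promoter summit, summits in several lines, or the palindrome were named with their values, and the others by counts. The windows shown were taken from the strongest by −log10 q with the palindrome, without untranslated sequence. Some windows and summits that these rules cover are not reported here.

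No test compared the counts of the 53 genes between groups or with other genes, and Dixon's criterion was applied to single lines among the high pY-STAT5 lines. Alternatives covered a −log10 q of at least 5, the start site window, the summit assignment, the interval length, the number of peaks, the flank, the motif, and leaving out each line. The stretch (for shares and densities), the equal number of peaks without KOPT-K1, and the distance for shared summits were chosen after the data were seen. Software was SciPy 1.17.1, NumPy 2.4.6, and matplotlib 3.10.9 under Python 3.11.15, and the functions were tested on simulated data.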

Additional observations from a re-analysis of the deposited data

Results flagged for a closer look

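For each of the 53 genes by its promoter or body summits, for the number of these genes under each of the 4 assignments, and for the number of chromosome 1 peaks, the 4 high pY-STAT5 lines were searched for 1 line far from the others, and the 2 low lines are too few for this. Of 58 values looked at, 16 had such a line: SUP-T13 in 10, HSB-2 in 5, KOPT-K1 in 1, and DND-41 in 0. The 58 include genes with 0 in all 4 high lines, which could not have such a line.

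SUP-T13 stood apart from the other high lines by its number of promoter or body summits at *GFI1* (1), *NRAS* (1), *CD2* (1), *CD1D* (1), *SLAMF6* (2), *CD84* (3), *SLAMF1* (2), *CD48* (2), *CD244* (4), and *CD247* (3). HSB-2 stood apart at *IL6R* (1), *CD1A* (1), *SLAMF8* (2), *SLAMF9* (1), and *XCL1* (1). KOPT-K1, with 29 peaks on the chromosome, stood apart at *SLAMF7*, where it had 0 and the other high lines had 1 each.

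A line counted as far from the others when its gap to the nearest of them, divided by the range of all 4, was above Dixon's 95% critical value. For continuous values, chance sets about 1 in 20 groups apart in this way. That rate does not hold for these small counts, since a single summit is enough where the other lines have 0, and neighbouring genes share the peaks of a region, so the 5 SLAM genes at which SUP-T13 stood apart are not independent of each other. Each line is 1 library, and why these lines differ was not tested.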

How the results depend on the processing

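Of 196 values recomputed under an alternative, 125 stayed within the limits used, and 71 moved. The limits were 1.5 times for a count, the interval for a share or density, and the SD of the high lines for the high minus low mean. That SD (8.5) includes the 0 of KOPT-K1, so the change from -4 to -0.167 without this line counts as staying. A 0 that remained 0 also counts as staying. That count does not cover the comparison of the listed with the other genes, whose direction was the same in 42 and turned in 11 of 53 comparisons. The cause was not tested except where the alternative itself removes or adds peaks. Lines are in the order of the report unless named.

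At a −log10 q of at least 5, which removes peaks, the listed genes with a promoter or body summit fell to 1 in JURKAT, 4 in LOUCY, 1 in SUP-T13, 2 in HSB-2, and 3 in DND-41, and the other genes to 1, 88, 34, 78, 51, and 25. Against the other genes, the listed genes were then above in DND-41 (5.66% and 4.38%) and JURKAT (1.89% and 1.25%) and below in SUP-T13 (1.89% and 3.88%), each turned from the report. Within 50 kb the listed genes fell to 0, 5, 3, 2, 6, and 2, and the genes with both low lines above all high lines to 0.

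With the 29 strongest peaks of each line, the listed genes fell to 1 in LOUCY and HSB-2 and to 0 in JURKAT, SUP-T13, and DND-41, and the others in the 5 lines but KOPT-K1 to 14, 11, 18, 16, and 11, which put the listed genes of SUP-T13 below the others (0% and 0.896%). With the 1655 strongest peaks of each line but KOPT-K1, chosen after the data were seen, the listed genes fell to 9 in JURKAT, and the others to 358 in DND-41 and 329 in JURKAT, which put the listed genes of JURKAT above (17% and 16.4%). Inside the stretch of the line, the listed genes of HSB-2 and LOUCY were below the others, as given in the report, and within 50 kb those of HSB-2, LOUCY, and JURKAT were.

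Counting every gene whose promoter or body shared at least 1 base with an interval, which differs from the report's count over the gene alone, gave 1 listed gene in KOPT-K1 (1.89%, others 0.398%), 32 in SUP-T13, and 24 in LOUCY, and 1007 others in SUP-T13 and 904 in LOUCY. Intervals of at most 5 kb alone gave 10 listed genes in JURKAT, 3 in LOUCY, 13 in SUP-T13, and 7 in HSB-2, and 147 others in LOUCY, 347 in SUP-T13, and 182 in HSB-2, with LOUCY below the others (5.66% and 7.32%). A start site window of 5 kb gave 1 listed gene in KOPT-K1, above the others there, and with 1 kb JURKAT was above them (30.2% and 29.9%). A flank of 10 kb gave 1 in KOPT-K1 and 16 in LOUCY.

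Leaving out each line, the genes with all high lines above the low lines numbered 0 to 3, those with the low lines above 33 to 429, and the listed genes among the latter 0 to 10. The mean of high minus low lines changed by less than the spread of the high lines when each line was left out, and ran from -6.83 to -0.167. No paired analysis was possible, because replicate numbers only index different cell lines.

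The share of summits with the palindrome rose within 100 bp to 16.3% in DND-41 and 7.78% in JURKAT, a wider window, and fell to 4.07% in DND-41 for the narrower motif TTCYNRGAA. Per Mb of gene body with 2 kb, the summits of the listed genes were 0 in KOPT-K1 (others 0.0682) and 23.7 in DND-41 (others 19.1), where they had been above (0.145 and 0.0909) and below (17.9 and 19.5), so that the direction turned in both. In HSB-2 the interval of the listed genes then overlapped that of the others. Inside the stretch of the line, chosen after the data were seen, the listed genes had 37 per Mb within 50 kb in JURKAT (others 43), 33 in SUP-T13 (others 24), 22.9 in HSB-2 (others 27.3), 25.3 in DND-41 (others 34.5), and 12.3 in LOUCY (others 13.1), so that HSB-2, LOUCY, and JURKAT turned from above to below. The share of shared summits within 250 bp or 1 kb, also chosen after the data were seen, was 7.5% or 17.7%, against 6.77% or 19.5% over the chromosome.

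What depth limits could not be measured, because library sizes are unknown. Each line is 1 library, and KOPT-K1 has too few peaks to compare. Whether the deposited lists are complete is not known and was not tested. They are nearly empty below 30 Mb and above 210 Mb. KOPT-K1 has 1.05% of its peaks on the chromosome, against 64.4% to 83.7% in the other lines. The lists also hold peaks above a minimum only, so a gene without a peak is not shown to lack STAT5B.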
